A study of Mus musculus with 6 samples.

Results

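The cell cycle and DNA replication genes described here are 36 mouse genes, chosen by symbol: 17 genes of DNA replication and S phase entry (the replication arm), 18 genes of the G2 phase and mitosis (the mitosis arm), and the G1 cyclin Ccnd1. All 36 had a row among the 28063 genes of the count table, and all 36 passed the filter on low counts. They were measured by RNA sequencing in E0771 cells, a mouse mammary carcinoma line, in 3 populations with 2 libraries each: Vector, with a control vector, Malt1_WT, which expresses Malt1 of wild type, and Malt1_PD, which expresses a mutant that the labels call PD without explaining the letters. All 3 populations, controls included, had been kept for 12 hours with activated CD8 T cells, 3 effector cells per target cell, then washed, trypsinised, replated and lysed 6 hours after replating. How the populations were derived, and which promoter drives Malt1, is not given in the sources used here. A difference between populations and an effect of the Malt1 form therefore cannot be told apart. It is also not stated whether the 2 libraries of a population come from separate cultures, and p-values then cover no more than library-to-library spread, possibly technical in origin.

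A dividing cell copies its DNA in S phase and separates the copies in mitosis. In G1, cyclin D and then cyclin E kinases release E2F transcription factors from the retinoblastoma protein, and E2F switches on the replication arm: loaders of the MCM helicase, the helicase itself, the sliding clamp, polymerases and the enzymes that make deoxynucleotides. The mitosis arm is switched on later, in G2, largely through B-MYB complexes at CHR elements and NF-Y at CCAAT boxes. It holds cyclin B and its kinase, the spindle checkpoint, the Aurora and Polo kinases, kinesins and centromere proteins. Levels of both arms in bulk RNA are widely used as a measure of proliferation. In a bulk sample, fewer cycling cells and less RNA per cycling cell cannot be told apart.

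The libraries held 14045390 to 19962014 counts, so 3 counts, taken as the detection floor, come to 0.150 to 0.214 CPM (read counts put on a common depth with TMM factors), a limit for counting error only. Malt1 itself stood at 23.8 and 31.3 CPM in Vector, 67.2 and 82.1 in Malt1_WT, and 105.5 and 95.7 in Malt1_PD, so that all 4 libraries of Malt1-expressing cells were above both Vector libraries. Activated T cells also divide, so T cell transcripts were counted: 11 of 15 listed T cell markers had a row, and together they came to 2.42 and 2.46 CPM in Vector, 1.49 and 2.24 in Malt1_WT, and 2.28 and 2.26 in Malt1_PD. Most of this was Lck, at 1.28 to 1.96 CPM, while Trbc2 was at 0 in 5 of 6 libraries and Cd8a in 5 of 6. Of 8 markers looked for in the carcinoma cells, Vim (mean 4108 CPM), Krt8 (116) and Epcam (7.24) were present, and Krt18, Krt7, Krt19, Krt14 and Cdh1 had means below 1 CPM. For each of the 4 members with the longest transcripts (Mki67, Cenpe, Pola1 and Top2a), Vector replicate 1 and Malt1_WT replicate 1 were below the other 4 libraries. They are called the libraries low on long transcripts, and values of these 4 members are given with and without them.

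The arms differ in the letters of their promoters. RefSeq promoter windows (250 bases before to 50 after the start, GRCm38.p6) were at hand for 14 of the 17 replication genes and 15 of the 18 mitosis genes, and were searched on both strands. The RefSeq start is not always the outer end of the gene in GENCODE M21. For E2f1, Cdc6 and Mcm7 all 150 bases before it lie inside that gene, and for Pcna and Cenpa 134 and 109 of them. These genes are kept in the shares. The CCAAT box bound by NF-Y was in 14 of 15 mitosis genes (93.3%) and 9 of 14 replication genes (64.3%), against 37.4% of all 32851 windows. The CHR letters TTTGAA were in 11 of 15 mitosis genes (73.3%), each of which also held CCAAT, and in 1 of 14 replication genes (7.14%), Mcm2, against 17.9% of all windows. An E2F pattern, TTNGCGC or GCGGGAA, was in 8 of 14 replication genes (57.1%) and 3 of 15 mitosis genes (20%), Mki67, Ccnb1 and Cdk1, against 10.3% of all windows. TTNGCGC was in 6 replication genes, GCGGGAA was in 6 replication genes and in 0 mitosis genes, and the 2 patterns can overlap in sequence with each other. Among the 9742 tested genes with a window the shares were 43.3% for CCAAT, 14.5% for TTTGAA and 20.6% for either E2F pattern. In the wider lists of cycle genes, which hold no member, TTTGAA was in 27 of 38 further mitosis genes (71.1%) and 6 of 34 further replication genes (17.6%), and an E2F pattern in 8 of 38 (21.1%) and 22 of 34 (64.7%). CCAAT was in 26 of the 38 (68.4%) and 17 of the 34, both below the shares among the members, and 23 of the 27 mitosis genes with TTTGAA also held it. No test was made of these shares. A match describes the letters only and is not a measured binding site.

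The following 150 bases upstream of the start are shown for Mki67, Top2a and Kif11 as examples of the mitosis arm and for Mcm5 and Mcm6 as examples of the replication arm. Mcm2 is shown because it is the exception, a replication gene whose window holds the CCAAT box and CHR letters of the mitosis arm. Each is written 5′ to 3′ on the gene's own strand, from RefSeq, GRCm38.p6, and capitals mark the letters of the CCAAT box, the CHR and both E2F patterns on either strand, so that a CCAAT box on the other strand reads ATTGG and a CHR there reads TTCAAA.
Mki67 (chr7:135716380-135716529, minus strand): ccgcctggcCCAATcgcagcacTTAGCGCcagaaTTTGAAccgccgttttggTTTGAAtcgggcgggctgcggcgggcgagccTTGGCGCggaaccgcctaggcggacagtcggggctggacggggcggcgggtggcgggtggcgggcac
Top2a (chr11:99024190-99024339, minus strand): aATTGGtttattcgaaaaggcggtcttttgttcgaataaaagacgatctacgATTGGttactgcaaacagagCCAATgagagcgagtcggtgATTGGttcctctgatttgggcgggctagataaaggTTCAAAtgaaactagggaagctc
Kif11 (chr19:37376232-37376381, plus strand): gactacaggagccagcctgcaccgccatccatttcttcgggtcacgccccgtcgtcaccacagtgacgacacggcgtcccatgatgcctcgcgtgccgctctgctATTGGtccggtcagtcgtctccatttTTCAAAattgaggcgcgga
Mcm2 (chr6:88898781-88898930, minus strand): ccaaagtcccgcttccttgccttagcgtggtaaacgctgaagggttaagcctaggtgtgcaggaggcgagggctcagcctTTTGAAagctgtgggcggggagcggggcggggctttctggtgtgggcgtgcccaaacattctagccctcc
Mcm5 (chr8:75109359-75109508, plus strand): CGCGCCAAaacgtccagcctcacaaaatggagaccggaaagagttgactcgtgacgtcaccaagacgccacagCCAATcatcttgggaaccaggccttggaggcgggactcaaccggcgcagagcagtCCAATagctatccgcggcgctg
Mcm6 (chr1:128359706-128359855, minus strand): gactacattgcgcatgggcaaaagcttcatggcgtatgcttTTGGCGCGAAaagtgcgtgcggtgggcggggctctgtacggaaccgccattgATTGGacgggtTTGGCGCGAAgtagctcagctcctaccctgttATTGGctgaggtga
The Mki67 stretch holds a CCAAT box, the CHR letters and the TTNGCGC pattern together, with TTTGAA beginning 116 and 98 bases before the start. Top2a and Kif11 show the mitotic pair, with TTCAAA beginning 23 and 19 bases before the start and CCAAT boxes upstream of it. In Mcm6 the E2F letters occur on both strands at overlapping positions, beginning 109 and 46 bases before the start. Mcm5 has 2 CCAAT boxes and an E2F match beginning 149 bases before the start, overlapped by another that runs on past the 5′ end of the stretch. The Mcm2 window holds CCAAT and TTTGAA with no E2F pattern. Only TTTGAA lies in the Mcm2 stretch shown, as the CCAAT box, on the other strand, begins 175 bases before the start.

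None of the 36 genes passed the test for a difference between any of the populations. With edgeR (quasi-likelihood F test, p-values adjusted by Benjamini-Hochberg over 14675 genes), 0 of 36 passed an adjusted p of 0.05 for Malt1_WT against Vector, and the background was as sparse, with 1 gene or 0.00681% called. The count was also 0 of 36 for Malt1_PD against Vector (background 0.00681%) and for Malt1_WT against Malt1_PD (0.00681%). At an unadjusted p under 0.05, edgeR gave 0 of 36 in each comparison, where 7.09%, 8.61% and 1.92% of all genes passed in the same order. DESeq2, fitted to all 28063 genes without the low-count filter, called 0 of 36 in each comparison, against 0.0891%, 0.121% and 0.00356% of those genes. At an unadjusted p under 0.05 it gave 0 of 36, against 1.76%, 2.13% and 0.299%. These DESeq2 shares include the genes of low count, so they have another base than the edgeR and limma-voom shares over 14675 genes. With limma-voom the calls were 0 of 36 (0.00681% of all genes each time), and 0 at an unadjusted p under 0.05 (7.24%, 8.52% and 1.81%). The 3 comparisons share libraries pairwise, so they are not separate evidence.

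The bounds on these differences were narrow. All 36 intervals (95%, log2 fold change) lay within 1 log2 unit of 0 in every comparison, and 34, 35 and 34 of them lay within 0.5 log2 units for Malt1_WT against Vector, Malt1_PD against Vector and Malt1_WT against Malt1_PD. The exceptions were Mki67, the proliferation antigen, in all 3 comparisons, and Cenpe, a mitotic kinesin, in Malt1_WT against Vector and Malt1_WT against Malt1_PD. The median log2 fold change of the replication arm was -0.01, 0.03 and -0.05 in the same order, that of the mitosis arm -0.05, -0.01 and -0.03, and that of all genes tested within 0.01 of 0.

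**Figure D1:**
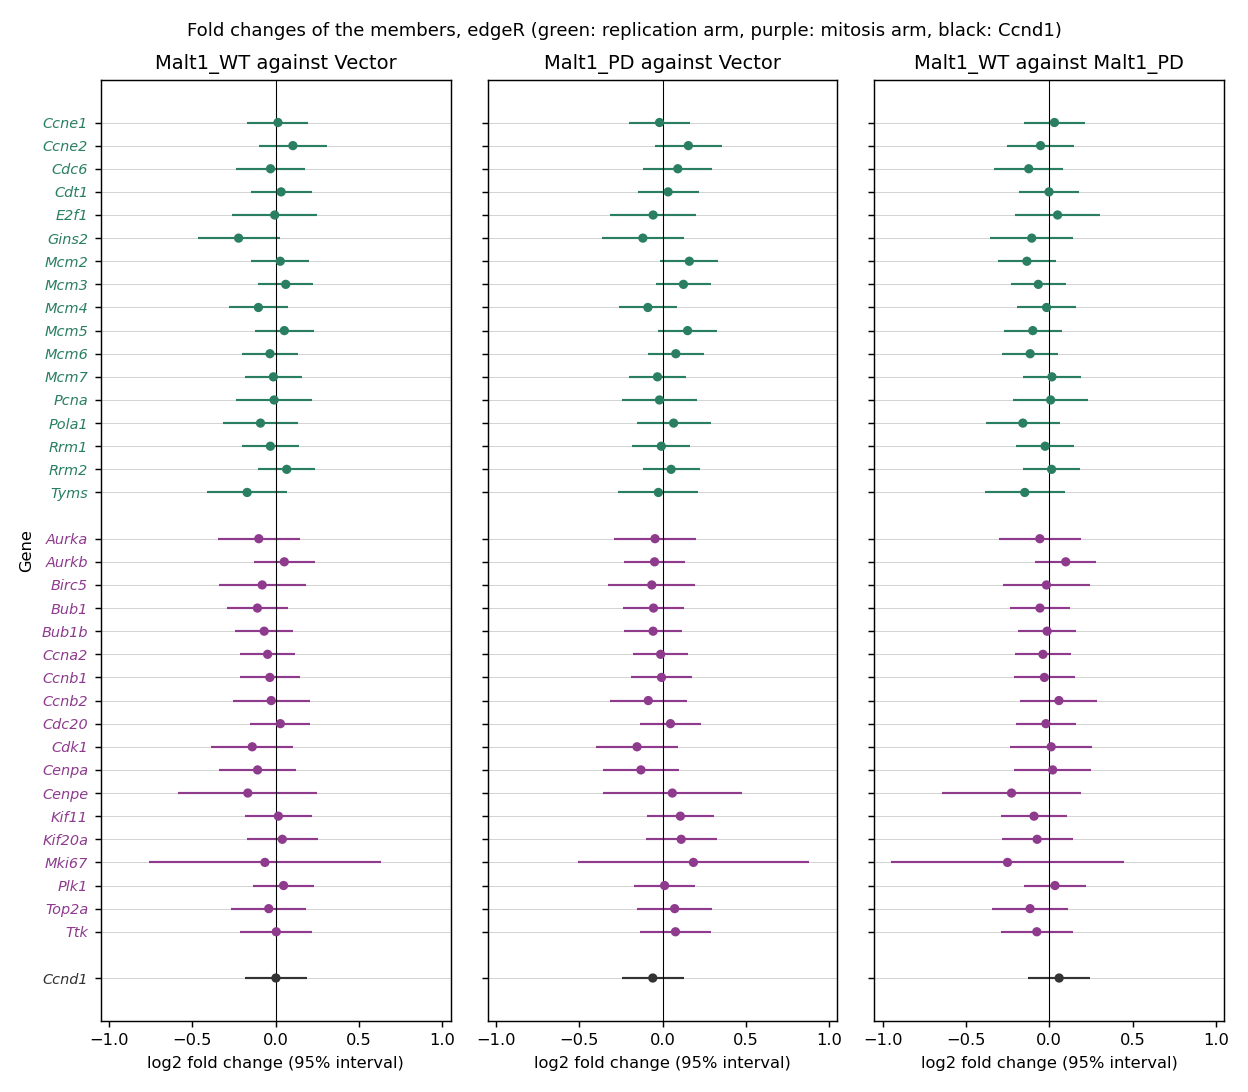
Log2 fold change of each of the 36 genes in the 3 comparisons (points, edgeR) with 95% intervals (bars), replication arm in green, mitosis arm in purple and Ccnd1 in black. Every bar crosses 0, and those of Mki67 and Cenpe are the widest.

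At the level of single libraries, groups that do not overlap were about as common among these genes as among all genes for Malt1_WT against Vector. There, 5 of 36 (13.9%) were higher in both Malt1_WT libraries, against 15.5% of all genes, and 7 of 36 (19.4%) were lower, against 17.1%. For Malt1_PD against Vector 10 of 36 (27.8%) were higher, against 18.4% of all genes, and 6 of 36 (16.7%) lower, against 19.7%. By arm, 7 of 17 replication genes and 3 of 18 mitosis genes were higher, and 2 of 17 and 4 of 18 lower. For Malt1_WT against Malt1_PD 4 of 36 (11.1%) were higher, against 16.1%, and 13 of 36 (36.1%) lower, against 16.0%. The 13 held 7 of 17 replication genes and 6 of 18 mitosis genes. They included the members with the longest transcripts, Mki67, Cenpe, Pola1 and Top2a, each lower in Malt1_WT replicate 1 than in Malt1_WT replicate 2. The genes above Vector in both Malt1_PD libraries included 4 of the 6 MCM subunits, Mcm2, Mcm3, Mcm5 and Mcm6. The remaining subunits, Mcm4 and Mcm7, went the other way, with both Malt1_PD libraries below both Vector libraries. Mcm2, Mcm3, Mcm5 and Mcm6 were also among the genes lower in Malt1_WT than in Malt1_PD, a pair of comparisons that shares the Malt1_PD libraries. With 2 libraries a side, each of these orderings rests on 4 values and none of them passed the test.

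**Figure D2:**
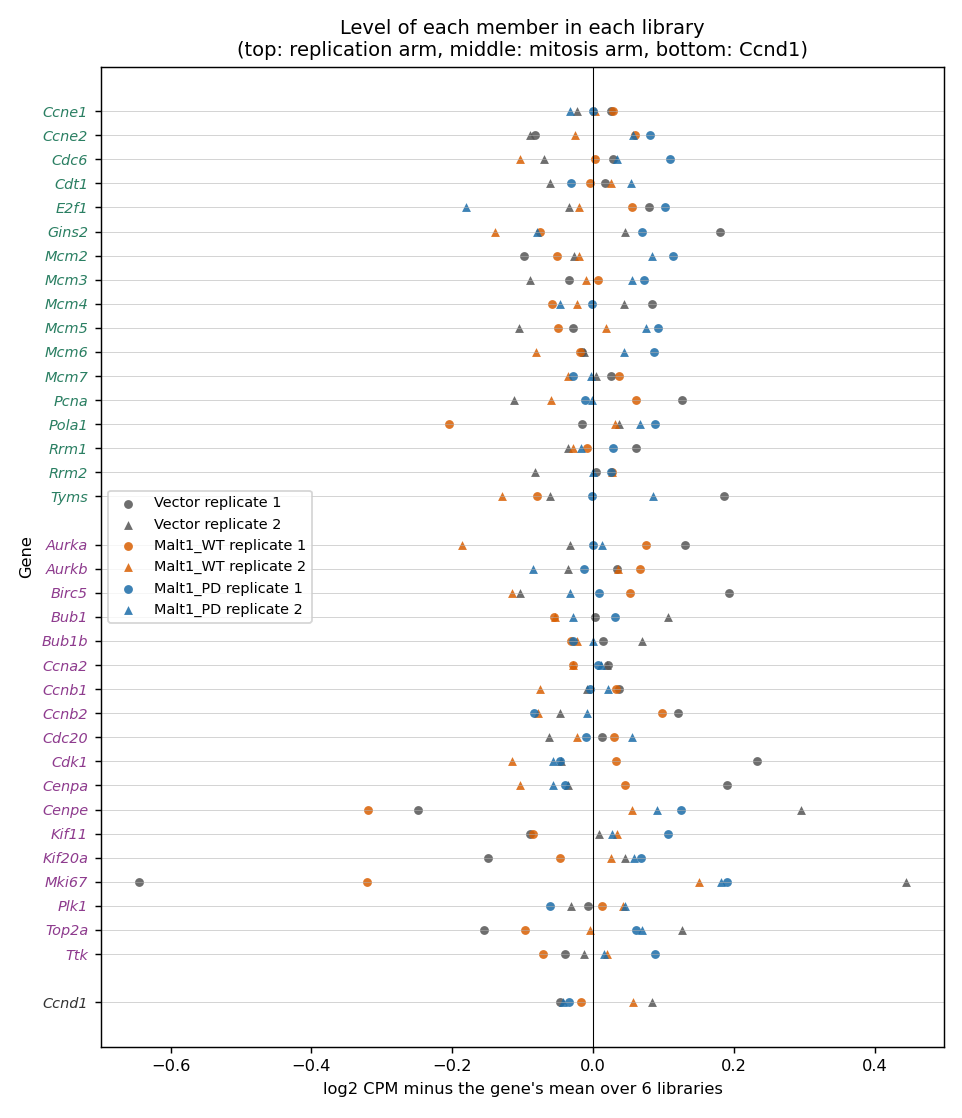
Log2 CPM of each gene in each of the 6 libraries minus that gene's mean over the 6 (colour: population, circle: replicate 1, triangle: replicate 2). Most points lie within 0.2 of the mean, while Mki67 and Cenpe spread most, with Vector replicate 1 and Malt1_WT replicate 1 at the low end.

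The MCM genes encode the 6 subunits of the ring-shaped helicase that opens DNA at replication origins. Summed over Mcm2 to Mcm7, the helicase took 1606 and 1580.3 CPM in Vector, 1605 and 1594 in Malt1_WT, and 1693 and 1669.8 in Malt1_PD, so that both Malt1_PD libraries were above the other 4. Mcm2 (ENSMUSG00000002870.8, chr6:88883474-88898780 in GRCm38) stood at 202 and 212 CPM in Vector, 209 and 214 in Malt1_WT and 234 and 229.6 in Malt1_PD. Both Malt1_PD libraries were above all others, by a log2 fold change of 0.16 ± 0.08 (SE, n = 2 each) over Vector with an interval of -0.01 to 0.33 and an edgeR adjusted p of 0.605. This was the smallest p of any member in that comparison.

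Mcm5 (chr8:75109569-75128439) had 271 and 257 CPM in Vector, 267 and 279.7 in Malt1_WT and 295 and 291 in Malt1_PD, with a log2 fold change of 0.15 ± 0.08 for Malt1_PD against Vector (edgeR adjusted p = 0.627). Mcm6 (chr1:128331590-128359664) had 320.0 and 321 CPM, 319.5 and 306, and 344 and 334 in the same order, a log2 fold change of -0.11 ± 0.07 for Malt1_WT against Malt1_PD. Mcm4, a subunit whose phosphorylation helps to fire origins, was lower in all 4 Malt1 libraries, with 170.0 and 165 CPM in Vector above 154 and 158 in Malt1_WT and 160.3 and 155 in Malt1_PD. Its log2 fold change was -0.10 ± 0.08 for Malt1_WT and -0.09 ± 0.08 for Malt1_PD against Vector, opposite in sign to those of Mcm3 and Mcm5. Mcm3 ranged over the 6 libraries from 348 to 389 CPM and Mcm7 from 269 to 283 CPM. Against Vector, 3 of the 6 subunits were above 0 in Malt1_WT and 4 in Malt1_PD, the log2 fold changes running from -0.10 to 0.06 and from -0.09 to 0.16.

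Cdc6 and Cdt1 load the helicase onto origins. Cdc6 ranged from 55.1 to 63.8 CPM and Cdt1 from 175 to 189.5 CPM over the 6 libraries, with log2 fold changes against Vector of -0.03 ± 0.09 and 0.09 ± 0.09 for Cdc6 and 0.03 ± 0.08 and 0.03 ± 0.08 for Cdt1 in Malt1_WT and Malt1_PD. Gins2, a subunit of the GINS complex that completes the active helicase, had the smallest p of the members in Malt1_WT against Vector. Its libraries stood at 32.3 and 29.4 CPM in Vector, 27.0 and 25.9 in Malt1_WT and 29.9 and 27.0 in Malt1_PD, and both Malt1_WT libraries were below both Vector libraries. The log2 fold change was -0.22 ± 0.11 for Malt1_WT against Vector, with an interval of -0.47 to 0.02 and an edgeR adjusted p of 0.732. Gins2 had the fewest reads of the 36, with 380 counts in its lowest library, and 2758 of its exon bases overlap Gse1 on the opposite strand. The library kit keeps strand, but its use in the counting is not stated in the sources used here, which makes this value less certain.

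Pcna, the sliding clamp that holds polymerases on DNA, had 282 and 239.6 CPM in Vector, 270.1 and 248 in Malt1_WT and 257 and 259 in Malt1_PD. The 2 Vector libraries lay on either side of all the others, and the group means were 261 ± 30.4, 259 ± 15.3 and 258 ± 1.26 CPM (SD, n = 2 each). The log2 fold changes against Vector were -0.01 ± 0.10 and -0.02 ± 0.10. A processed copy, Pcna-ps2, was counted at 36.1 CPM on average, and reads could be split between the pair. Pola1, the catalytic subunit of the polymerase that primes each new strand, had 125 and 129 CPM in Vector, 109 and 129 in Malt1_WT and 134 and 132 in Malt1_PD. The low value was that of Malt1_WT replicate 1, and the log2 fold change for Malt1_WT against Malt1_PD was -0.16 ± 0.10. It was -0.05 without that library and -0.28 without Malt1_WT replicate 2.

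Ribonucleotide reductase (Rrm1 and Rrm2) and thymidylate synthase (Tyms) supply the deoxynucleotides. Rrm1 ranged from 399.9 to 427 CPM and Rrm2, the subunit whose level limits the enzyme in S phase, from 341 to 368 CPM. Their log2 fold changes against Vector were -0.03 ± 0.08 and -0.01 ± 0.08 for Rrm1, and 0.07 ± 0.07 and 0.05 ± 0.07 for Rrm2. Tyms stood at 70.4 and 59.3 CPM in Vector, 58.6 and 56.6 in Malt1_WT and 61.8 and 65.7 in Malt1_PD. Both Malt1_WT libraries were below the other 4, with a log2 fold change of -0.17 ± 0.10 against Vector (edgeR adjusted p = 0.792). The size depended on the Vector library kept: it was -0.04 without Vector replicate 1 and -0.29 without Vector replicate 2.

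E2f1 is the transcription factor at the head of the arm, and cyclins E1 and E2 (Ccne1, Ccne2) activate CDK2 at the start of S phase. E2f1 had 70.7 and 65.3 CPM in Vector, 69.5 and 66.0 in Malt1_WT and 71.8 and 59.0 in Malt1_PD, so that the widest gap was between the 2 Malt1_PD libraries. Ccne1 was nearly flat, with 85.2 and 82.5 CPM, 85.4 and 83.9, and 83.8 and 81.9 in the same order. Ccne2 had 37.7 and 37.5 CPM in Vector, below 41.6 and 39.2 in Malt1_WT and 42.2 and 41.5 in Malt1_PD. All 4 Malt1 libraries were above both Vector libraries for Ccne2, by log2 fold changes of 0.10 ± 0.09 for Malt1_WT and 0.16 ± 0.09 for Malt1_PD (edgeR adjusted p = 0.868 and 0.676). The exons of Ccne2 overlap Ints8 on the opposite strand over 609 bases.

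Ccnd1, cyclin D1, links growth signals to the G1 phase and is also induced by NF-kB, the pathway MALT1 activates in lymphocytes. It stood at 254 and 278 CPM in Vector, 259 and 273 in Malt1_WT and 256 and 255 in Malt1_PD. The log2 fold change was -0.06 ± 0.08 for Malt1_PD against Vector and 0.06 ± 0.08 for Malt1_WT against Malt1_PD, and for Malt1_WT against Vector the interval was -0.19 to 0.19. The 2 Vector libraries lay on either side of the other 4. Ccnd1 shares 1100 exon bases with LTO1 on the opposite strand.

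In the mitosis arm, Mki67 (Ki-67, which coats mitotic chromosomes and is the standard marker of cycling cells; ENSMUSG00000031004.8, chr7:135689784-135716361) varied most. Its 2 Vector libraries stood at 121 and 257 CPM, a 2.13-fold gap within 1 group, its Malt1_WT libraries at 151 and 209.5, and its Malt1_PD libraries at 215 and 214. The Vector pair enclosed all 4 other values, and the log2 fold change was -0.07 ± 0.30 for Malt1_WT and 0.19 ± 0.30 for Malt1_PD against Vector, with intervals of -0.76 to 0.63 and -0.51 to 0.88. Top2a, the topoisomerase that untangles sister chromatids (ENSMUSG00000020914.17, chr11:98992943-99024189), stood at 933 and 1133 CPM in Vector, 971 and 1035 in Malt1_WT and 1083 and 1089.8 in Malt1_PD. Its fold changes were -0.04 ± 0.10 and 0.07 ± 0.10 on the log2 scale, again with the Vector pair around all others. Cenpe, a kinesin that carries chromosomes to the spindle equator, had 119 and 173 CPM, 113 and 146, and 154 and 150.1 in the same order, and both Malt1_WT libraries were below both Malt1_PD libraries by a log2 fold change of -0.23 ± 0.18. The size rested on Malt1_WT replicate 1: the value was -0.05 without it and -0.43 without Malt1_WT replicate 2.

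CDK1 and its cyclins drive entry into mitosis. Cdk1 had 248 and 204 CPM in Vector, 216 and 195 in Malt1_WT and 204 and 203 in Malt1_PD, and the high value was that of Vector replicate 1. Its log2 fold change was -0.14 ± 0.11 for Malt1_WT and -0.15 ± 0.11 for Malt1_PD against Vector (edgeR adjusted p = 0.844 and 0.745). The Malt1_WT value was 0.0032 without Vector replicate 1 and -0.27 without Vector replicate 2. Ccnb1 stood at 217 and 210.5 CPM in Vector, 217 and 201 in Malt1_WT and 211 and 215 in Malt1_PD, groups that overlapped in every comparison. Ccnb2 ranged from 87.1 to 100.4 CPM. Ccna2, cyclin A2, which acts in both S phase and G2, was the steadiest of the 36, from 256 to 265 CPM. Its values separated the populations completely, Malt1_WT lowest and Vector highest, but by log2 fold changes of only -0.05 ± 0.07 and -0.01 ± 0.07 against Vector.

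The spindle checkpoint kinases hold anaphase back until chromosomes are attached. Bub1 stood at 191 and 205 CPM in Vector, 183 and 184 in Malt1_WT and 195 and 187 in Malt1_PD. Malt1_WT was the lowest group, with a log2 fold change of -0.11 ± 0.08 against Vector, the smallest p of the arm in that comparison (edgeR adjusted p = 0.834). Bub1b ranged from 178 to 191 CPM and Ttk, which recruits the checkpoint to kinetochores, from 31.7 to 35.4 CPM. Cdc20, the activator of the anaphase-promoting complex that the checkpoint restrains, ranged from 187 to 202 CPM.

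Aurora B (Aurkb) and survivin (Birc5) belong to the chromosomal passenger complex, and Aurora A (Aurka) and Plk1 mature the spindle poles. Aurkb had 149 and 142 CPM in Vector, 152 and 149 in Malt1_WT and 144 and 137 in Malt1_PD, with Malt1_WT highest and a log2 fold change of 0.10 ± 0.08 for Malt1_WT against Malt1_PD. Aurka ranged from 118 to 146 CPM, Plk1 from 138 to 148 CPM, and Birc5 from 135 to 168 CPM. The extremes of Aurka and Birc5 were Vector replicate 1 at the top and Malt1_WT replicate 2 at the bottom.

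Cenpa is the histone H3 variant that marks centromeres, and Kif11 and Kif20a are kinesins of spindle assembly and the midzone. Cenpa stood at 244 and 208 CPM in Vector, 220.4 and 199 in Malt1_WT and 208 and 205 in Malt1_PD, with a log2 fold change of -0.13 ± 0.10 for Malt1_PD against Vector. Over the fits of the closing section that value ran from -0.23 to -0.01. Kif11 stood at 127 and 136 CPM, 128 and 139, and 146 and 138 in the same order, both Malt1_PD libraries being above both Vector libraries by a log2 fold change of 0.11 ± 0.09. Kif20a ranged from 96.7 to 112 CPM, and 1271 of its exon bases overlap Cdc23 on the opposite strand. Smaller overlaps on the opposite strand were found for Ccna2 with Exosc9 (510 bases), Mcm7 with Ap4m1 (321) and Cops6 (64), Plk1 with Gm44985 (156) and Cdc20 with Elovl1 (53).

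Per kilobase of the principal transcript, the mean levels over the 6 libraries ran from 7.33 CPM per kilobase for Gins2 to 199 for Top2a. After Top2a came Pcna (171), Rrm2 (165), Birc5 (155), Cenpa (146) and Mcm3 (122), so that both arms stood among the highest. The lowest after Gins2 were Ttk (11.6), Ccne2 (13.3), Cenpe (18.0), Mki67 (19.3) and Tyms (19.6). The order depended on the length used. Per kilobase of the gene length deposited with the counts, Rrm2 (130) stood above Top2a (115), and Birc5 and Cenpa came to 43.2 and 36.5. Ttk (6.78) was then below Gins2 (6.98). Together the 36 genes took 0.720% to 0.750% of the counts of a library, with 0.721% and 0.737% in Vector, 0.720% and 0.727% in Malt1_WT, and 0.750% and 0.749% in Malt1_PD.

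With all members, the arms did not separate by more than the spread between libraries. Averaged over its 17 genes, the replication arm had a mean log2 CPM of 7.23 and 7.16 in Vector, 7.18 and 7.16 in Malt1_WT, and 7.24 and 7.21 in Malt1_PD. The mitosis arm had 7.35 and 7.41, 7.34 and 7.35, and 7.39 and 7.39 in the same order. The difference, replication minus mitosis, was -0.12 and -0.25 in Vector, -0.16 and -0.18 in Malt1_WT, and -0.15 and -0.18 in Malt1_PD, so the Vector pair enclosed all other libraries. As a mean of fitted log2 fold changes, the replication arm stood above the mitosis arm by 0.024 in Malt1_WT against Vector and by 0.031 in Malt1_PD against Vector, and differed by -0.00773 in Malt1_WT against Malt1_PD. The SD within groups of this difference, pooled, was 0.0553, so none of the 3 values exceeded the spread between libraries. Most of that spread was the Vector pair's, whose SD was 0.0912 against 0.0189 in Malt1_WT and 0.0219 in Malt1_PD. Genes of an arm are not replicates, and no test was made of these means.

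The gap between the Vector libraries was smaller without the longest transcripts. Without the 4 members whose principal transcript is 5000 nt or longer (Mki67, Cenpe, Pola1 and Top2a), the difference between the arms was 0.00059 and -0.020 in Vector, 0.00018 and 0.018 in Malt1_WT, and 0.056 and 0.022 in Malt1_PD. The 2 Vector libraries then differed by less than the 2 Malt1_PD libraries, and both Malt1_PD libraries were above the other 4. As a mean of fitted log2 fold changes, the replication arm then stood above the mitosis arm by 0.050 in Malt1_PD against Vector and by 0.019 in Malt1_WT against Vector, and below it by a difference of -0.031 in Malt1_WT against Malt1_PD. The pooled SD within groups was 0.0176 here. Leaving out members with wide gaps between libraries lowers that SD by itself, so it gives no measure for these 3 values. Members of matched length gave 0.039, 0.044 and -0.00499 in Malt1_WT against Vector, Malt1_PD against Vector and Malt1_WT against Malt1_PD. The 4 longest members were set apart after the values had been seen, and no test was made. All but Pola1 belong to the mitosis arm, so transcript length and arm are linked in this list.

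**Figure D3:**
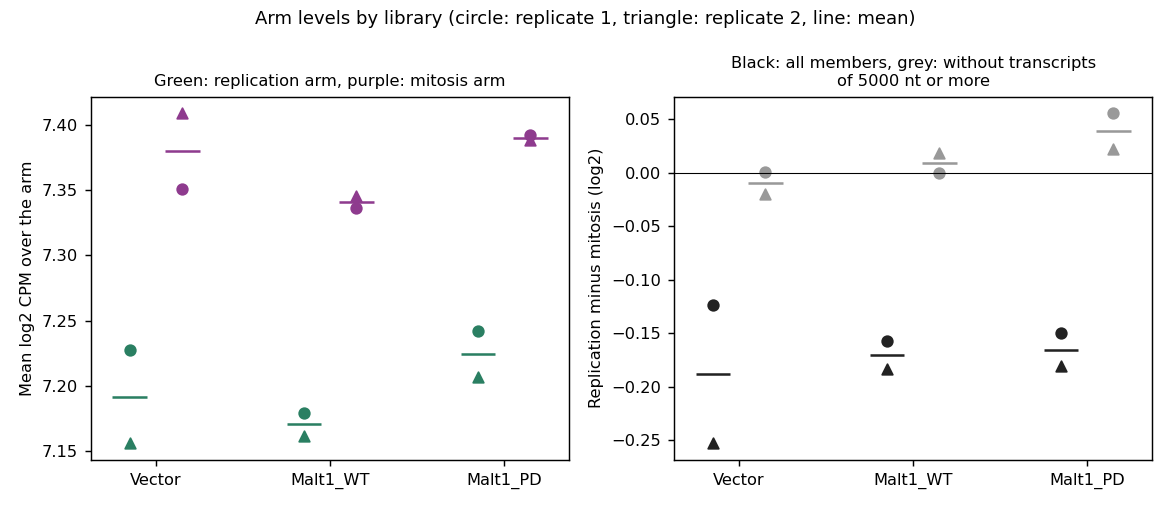
Left, mean log2 CPM over the replication arm (green) and the mitosis arm (purple) in each library, and right, the difference between the arms with all members (black) and without the 4 transcripts of 5000 nt or longer (grey). Circles are replicate 1, triangles replicate 2 and lines group means, and the black Vector points at -0.12 and -0.25 lie on either side of all other black points.

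The difference between the libraries of a group followed transcript length in 2 of the 3 populations. Over the 36 genes, the log2 ratio of replicate 1 to replicate 2 had a Spearman rho with principal transcript length that was -0.61 in Vector and -0.68 in Malt1_WT, against 0.19 in Malt1_PD. With the deposited gene length the rho was -0.39 in Vector, -0.42 in Malt1_WT and 0.24 in Malt1_PD. These values describe genes of shared libraries and carry no test. In Vector the ratio ran from -1.09 for Mki67 (principal transcript 10061 nt) to 0.30 for Birc5 (947 nt). In Malt1_WT it ran from -0.47 for Mki67 to 0.26 for Aurka, and in Malt1_PD from -0.11 for Plk1 to 0.28 for E2f1. The part of RNA quality or library preparation in this was not tested.

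**Figure D4:**
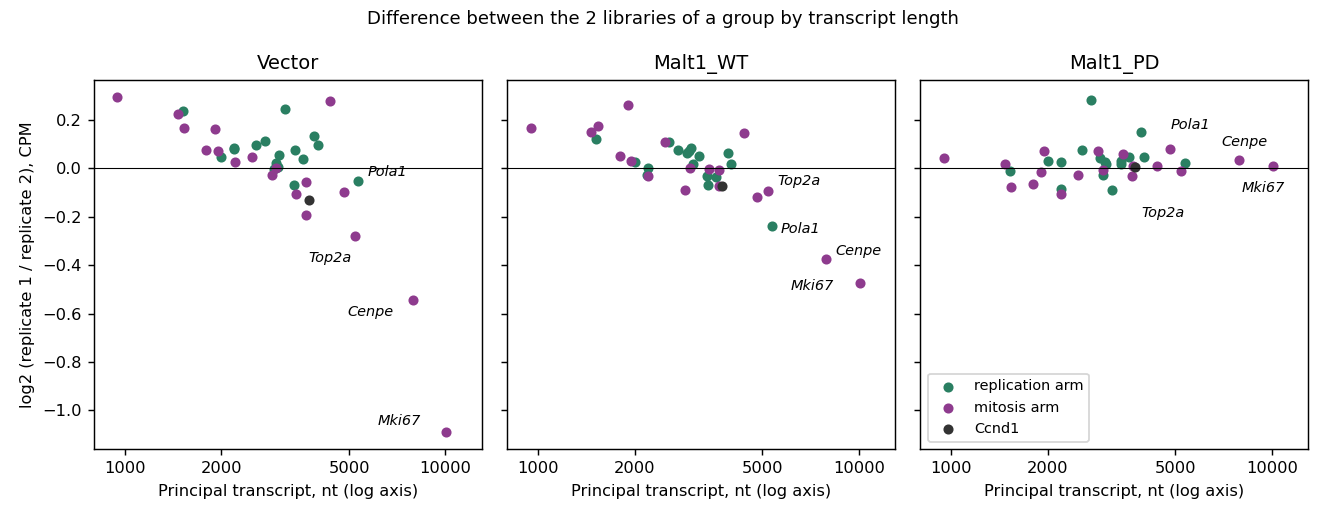
Log2 ratio of replicate 1 to replicate 2 for each gene against the length of its principal transcript (log axis), in Vector, Malt1_WT and Malt1_PD, with the 4 longest transcripts named. In Vector and Malt1_WT the points fall with length, to -1.09 and -0.47 for Mki67, while in Malt1_PD they stay between -0.11 and 0.28.

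The direction for Mki67 depended on which Vector library was kept. Without Vector replicate 2, edgeR called 1 of 36 members in Malt1_WT against Vector, Mki67, at a log2 fold change of 0.59 ± 0.14 (SE; adjusted p = 0.0309), where 3.91% of all genes were called. The same fit called Mki67 alone in Malt1_PD against Vector, at 0.84 ± 0.14 (adjusted p = 0.00423; 6.05% of all genes). Without Vector replicate 1, Mki67 stood at -0.51 and -0.26 in these comparisons, Cenpe at -0.41 and -0.19, and 0 of 36 members were called, against 0.326% and 0.724% of all genes. In these fits the lone Vector library is assumed to vary like the other groups.

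Without both libraries low on long transcripts, Vector and Malt1_WT kept 1 library each, so that the fit took all of its spread from the 2 Malt1_PD libraries. That pair was the closest of the 3, with a median difference between replicates of 0.031 log2 units over the 36 genes, against 0.091 in Vector and 0.073 in Malt1_WT. The calls of this fit therefore set single libraries against each other with a spread that may be too small. They came to 3 of 36 members in Malt1_WT against Vector (6.15% of all genes), 4 in Malt1_PD against Vector (13.7%) and 1 in Malt1_WT against Malt1_PD (2.35%). The values of the 4 longest members, called or not, were as follows. Mki67 stood at -0.29, -0.26 and -0.04 in these comparisons and Cenpe at -0.24, -0.19 and -0.05. Top2a stood at -0.13, -0.06 and -0.07, and Pola1 at -0.0043, 0.04 and -0.05. Pola1 was called in none of these comparisons, and Mki67, Cenpe and Top2a in some of them only. The called members outside these 4 were Mcm3 (0.16) and Mcm5 (0.19) in Malt1_PD against Vector and Aurka (-0.19) in Malt1_WT against Malt1_PD. A further fit kept all 6 libraries and removed from each its trend over the deposited gene length. That length can exceed the principal transcript: for Rrm1 it is 11012 against 3997 nt. This fit called 0 of 36 members in each comparison, against 0.375%, 0.593% and 0.00681% of all genes. The gap between libraries was not fully removed, as the SE of Mki67 in Malt1_WT against Vector was still 0.21, against 0.30 in the main fit. In that fit Mcm2, Mcm3 and Mcm5, 3 of 36, had an unadjusted p under 0.05 for Malt1_PD against Vector, a smaller share than the 12.9% of all genes, and 0 of 36 did in Malt1_WT against Vector (11.0%) and Malt1_WT against Malt1_PD (2.94%). The log2 fold changes for Malt1_PD against Vector were 0.15 ± 0.06 for Mcm2 and 0.17 ± 0.06 for Mcm5 (edgeR adjusted p = 0.350 for Mcm2 and 0.298 for Mcm5).

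The wider lists had no called gene either. Of 44 further replication and S phase genes, all of them tested, 0 were called by edgeR in any comparison, and 2, 1 and 0 (4.55%, 2.27% and 0%) had an unadjusted p under 0.05 in Malt1_WT against Vector, Malt1_PD against Vector and Malt1_WT against Malt1_PD. Each share was below the 7.09%, 8.61% and 1.92% of all genes, and the genes named here and in the next lists are those of smallest p, given as values. In Malt1_WT against Vector these were Rfc4, a subunit of the clamp loader, at -0.30 ± 0.13 (log2, SE; adjusted p = 0.680), and Chaf1b, of the chromatin assembly factor, at -0.25 ± 0.10, followed by Pole2 of polymerase epsilon at -0.16 ± 0.10. In Malt1_PD against Vector it was Exo1, an exonuclease of mismatch repair, with 50.5 and 59.1 CPM in Vector and 64.5 and 67.4 in Malt1_PD (0.27 ± 0.10; adjusted p = 0.548), followed by Rfc2 (-0.19 ± 0.09) and the uracil glycosylase Ung (0.21 ± 0.11). The 3 smallest p-values in Malt1_WT against Malt1_PD were those of Rpa2, of the single-strand binding complex (-0.18 ± 0.09), Pole2 (-0.14 ± 0.10) and Dtl (-0.14 ± 0.09). The median log2 fold change of the list was -0.06, -0.0041 and -0.05.

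Of 46 further mitosis genes 45 were tested, 0 were called, and 3, 0 and 2 (6.67%, 0% and 4.44%) had an unadjusted p under 0.05, against 7.09%, 8.61% and 1.92% of all genes. Kif18a, a kinesin that dampens chromosome movement, was lowest in Malt1_WT, at 27.5 and 29.9 CPM against 34.5 and 36.4 in Vector and 33.2 and 35.1 in Malt1_PD (-0.30 ± 0.10 against Vector; adjusted p = 0.574). Nusap1, a spindle protein (-0.21 ± 0.08), and Ndc80, of the kinetochore (-0.20 ± 0.08), were next in that comparison. Smc2 of condensin (-0.22 ± 0.08), Kif18a (-0.25 ± 0.10) and the spindle protein Hmmr (-0.23 ± 0.10) had the smallest p for Malt1_WT against Malt1_PD, and Sgo1 (0.17 ± 0.08), Nusap1 (-0.15 ± 0.08) and Nek2 (-0.15 ± 0.08) for Malt1_PD against Vector. The median of the list was -0.07, -0.01 and -0.04. Sgol1, an older symbol in the list, is not analysed here.

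Of 35 G1 genes and cycle regulators 33 were tested, 0 were called, and 1, 3 and 0 (3.03%, 9.09% and 0%) had an unadjusted p under 0.05, shares below or near the 7.09%, 8.61% and 1.92% of all genes. Lowest of all these p-values was that of E2f6, a repressor of the E2F family, with 87.3 and 89.0 CPM in Vector, 115 and 107 in Malt1_WT and 110.3 and 102 in Malt1_PD. All 4 Malt1 libraries were above both Vector libraries, by log2 fold changes of 0.33 ± 0.09 and 0.27 ± 0.09 (edgeR adjusted p = 0.432 and 0.478). In Malt1_PD against Vector E2f5, a repressor of the same family (-0.24 ± 0.10), and E2f3, an activator (0.20 ± 0.08), followed in opposite directions. The CDK inhibitor Cdkn2c (-0.17 ± 0.08) and Pkmyt1, which inhibits CDK1 (-0.18 ± 0.09), followed in Malt1_WT against Vector. For Malt1_WT against Malt1_PD the genes were Pkmyt1 (-0.20 ± 0.09), Cdkn1a, the p53-induced CDK inhibitor p21 (0.20 ± 0.10), and E2f3 (-0.14 ± 0.08). The median of the list was 0.01, 0.00 and 0.01, and Cdkn2a and Cdkn2b are not analysed here.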

How the data were processed

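RNA of the 6 libraries was counted per gene. The authors deposited whole-number counts, not normalised, and the tools listed per the submitters' processing notes are featureCounts 1.6.3, STAR 2.7.3a and Trim Galore 0.6.0, with build GRCm38.p6. Neither the annotation release nor the strand setting is given in the sources used here. Of 28063 gene identifiers 28056 matched GENCODE M21, which gave coordinates and principal transcripts, and 25 symbols that had become dates were restored. The 6 deposited log2 RPKM columns were not used. Genes were kept by filterByExpr (14675) and a quasi-likelihood model with TMM factors was fitted (edgeR 4.0.16, R 4.3.3; all 6 libraries, a mean per group, no covariate). The common dispersion was 0.0101 (biological coefficient of variation 10.1%) with 3 residual degrees of freedom. Standard errors and 95% intervals come from the quasi-likelihood F, and p-values were adjusted by Benjamini-Hochberg with a threshold of 0.05. DESeq2 1.42.0, limma 3.58.1 (voom) and the settings of the closing section were the alternatives, and the code was tested on simulated data. The members, arms and lists were chosen with earlier results of these data known. Values in every library were given for Mki67, Top2a, Ccnb1, Cdk1, Pcna, Mcm2, Ccne1, Ccne2, E2f1 and Ccnd1, and for the 3 members of each arm with the smallest p per comparison, and the 3 genes with the smallest p were named in each wider list.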

Additional observations from a re-analysis of the deposited data

How the results depend on the processing

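The count of members called stayed at 0 in all comparisons with DESeq2 size factors, no low-count filter, the replicate block, the length trend removed (with or without the block, the former added after seeing the data), 2 groups only, DESeq2 and limma-voom. It was 0 to 1 over the fits that each left out a library for Malt1_WT against Vector and for Malt1_PD against Vector, and 3, 4 and 1 (Malt1_WT against Vector, Malt1_PD against Vector, Malt1_WT against Malt1_PD) without both libraries low on long transcripts, a fit with all of its spread from the Malt1_PD pair. In that last setting Cenpe turned to -0.19 and Mki67 to -0.26 in Malt1_PD against Vector, and over the fits that each left out a library Mki67 ran from -0.51 (without Vector replicate 1) to 0.59 (without Vector replicate 2) in Malt1_WT against Vector. The cause was not tested beyond the dependence on these libraries. Of 945 fold changes of the 21 genes given in every library, 8 were called under an alternative and 73 changed sign, each from a main log2 fold change of at most 0.19 in size that had not been called.

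The arm difference ran from -0.049 to 0.080 for Malt1_WT against Vector and from -0.041 to 0.088 for Malt1_PD against Vector when each library was left out, the extremes being the fits without Vector replicate 2 and without Vector replicate 1. Without both libraries low on long transcripts it was 0.069 in Malt1_WT against Vector and 0.088 in Malt1_PD against Vector, and without the 4 longest members, an alternative added after seeing the data, 0.019, 0.050 and -0.031. Members of matched length (12 and 8 genes of a deposited length of 2400 to 4666 nt) gave 0.039, 0.044 and -0.00499.

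The number of all genes called, 1 per comparison, moved more. It was 113, 188 and 12 without the low-count filter, 25 and 34 against Vector with DESeq2, 55 and 87 with the length trend removed, 163 and 228 with that and the replicate block, and 936, 2080 and 358 without both libraries low on long transcripts. Leaving out each library gave 1 to 599 for Malt1_WT against Vector and 0 to 928 for Malt1_PD against Vector, where the fit without either Malt1_PD library gave 0 and that without Vector replicate 1 gave 50 and 111. The replicate block gave 6 and 9 against Vector. The labels give no shared source for a replicate number: the difference between replicates 1 and 2 correlated at 0.68 between Vector and Malt1_WT over 9573 genes, but at -0.01 between Vector and Malt1_PD and 0.03 between Malt1_WT and Malt1_PD, so the numbers were not taken to pair the samples.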
